A study of Mus musculus with 8 samples.

Results

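The 145 expressed solute carrier genes of 2 macrophage populations from injured mouse retina are described here. Members are the genes whose symbol starts with Slc followed by a family number, a letter and a member number, less Slc1a3, Slc40a1, Slc11a1 and Slc38a10, with at least 1 FPKM, a read level corrected for transcript length and library depth, in at least 4 of 8 RNA sequencing libraries. Of the 22558 symbols measured, 350 fitted the name rule after those 4 exclusions, and the 145 members are among 9352 genes that reached the same level. The filter on level used values of these libraries, so that a member is expressed is not a result.

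Of the 8 libraries, 4 were labelled infiltrating macrophages (numbers 5 to 8) and 4 microglia (numbers 1 to 4), the resident macrophages of neural tissue. Both groups came from retinas of mice that were about 5 months old and of mixed strain (C57BL/6 and 129), genotype Msi1-CreERT2/+; R26R-DTA/+, at day 7 after injury. In such mice a tamoxifen-inducible Cre recombinase, expressed from the Msi1 gene, switches on diphtheria toxin fragment A and kills the cells in which it was active. Both groups are labelled with both alleles and are from injured retina, so no uninjured reference was analysed here. The genotype is given for the mice and was not checked in the sequenced cells. How the cells were sorted, what the GFP in the macrophage titles marks, and whether libraries came from separate animals are not stated in the sources used, and p-values therefore cover the spread among these libraries alone.

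Solute carriers are membrane proteins that move nutrients, metabolites and ions across the cell surface and across the membranes of organelles, by facilitated diffusion or by coupling the solute to an ion gradient or to exchange. Macrophages use them to take up glutamine, glucose and cystine, to export lactate, to empty the lysosome of digested amino acids, nucleosides, metals and haem, and to exchange metabolites with the mitochondrion. Some work as pairs, such as the amino acid exchangers that reach the surface only with the heavy chain encoded by Slc3a2.

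Markers separated the libraries by their labels. The summed level of 6 monocyte and macrophage markers (Ccr2, Ly6c2, H2-Aa, H2-Ab1, Cd74 and Plac8) was 3448 to 13913 FPKM in macrophage libraries and 48.6 to 192 FPKM in microglial libraries. The sum of 6 microglial markers was 503 to 1660 FPKM in macrophage libraries and 1797 to 2452 FPKM in microglial libraries, and Sall1, the most restricted of them, was at most 0.0352 FPKM in macrophage libraries and 8.61 to 26.8 FPKM in microglial ones. Rod photoreceptor markers summed to 3.06 to 51.4 FPKM in macrophage libraries and 18.5 to 118 FPKM in microglial libraries, so some retinal RNA was present in both. Of 4 neutrophil markers measured, summing to 40.3 to 174 FPKM in macrophage libraries and 0 to 0.628 FPKM in microglial libraries, S100a8 and S100a9 carried the sum in macrophages and were listed at 0 in all microglia, and Camp and Ngp were listed at 0 in all macrophages. Haemoglobin and other erythroid genes summed to 0.693 to 23.7 FPKM in macrophage libraries, against 160, 165, 2437 and 0.683 FPKM in microglia 1 to 4. Y-linked genes summed to 0.0107 to 1.97 FPKM in macrophage libraries, against 25.8, 11.7, 16.5 and 0.0533 FPKM in microglia 1 to 4, so microglia 4 was the only microglial library without Y-linked RNA. Xist was at 4.84 to 7.94 FPKM in macrophage libraries and at 4.78 FPKM in microglia 4, against at most 0.000779 FPKM in the other microglia. The labels give no sex, and Y-linked RNA and population cannot be told apart except through microglia 4, on which every value given with the Y-linked covariate therefore rests. FPKM summed over all symbols to 207154 (macrophage 7) to 512101 (macrophage 6) in macrophage libraries and 296110 to 392952 in microglial libraries. The part of these differences in the results on the members was not tested, except where a value is given.

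One microglial library held far fewer members than the others. At 1 FPKM or more were 132, 128, 118 and 134 members in macrophage 5 to 8, and 127, 65, 109 and 135 members in microglia 1 to 4. Microglia 2 had 60 members below 0.1 FPKM, 38 of them listed at 0, whereas every other library had between 1 and 13 members below 0.1. The gap was wider for the members than for all genes tested: 44.8% of members reached 1 FPKM in microglia 2 and 58.0% of the 9352 genes did. Members were also lower in level, with a median mean of 4.94 FPKM against 6.48 FPKM for all genes tested. Genes of like level were not compared. Of the members, 18 were below 0.1 FPKM in microglia 2 and at 1 FPKM or more in each of the other 7 libraries, and 76 of 145 (52.4%) had their lowest value of all there, against 40.5% of all genes tested. Whether this reflects the cells or the recovery of RNA from that library was not tested, and a value of 0 in these tables is not evidence of no transcript.

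**Figure D1:**
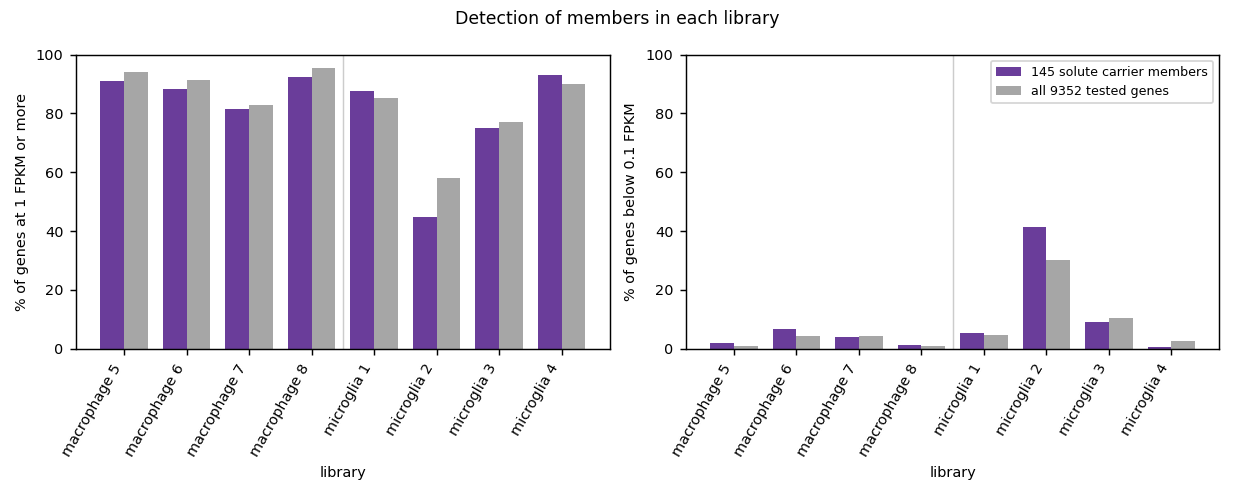
Members at 1 FPKM or more and members below 0.1 FPKM in each library, as a percentage of 145 members, with the same percentage over all 9352 genes tested beside it. Microglia 2 stands apart, with 44.8% of members at 1 FPKM or more and 41.4% below 0.1 FPKM.

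Among the macrophage libraries the members moved with the library as a whole. Macrophage 6 held the highest of the 4 macrophage values for 87 members, and macrophage 7 the lowest for 74. The median member stood at 4.72, 7.24, 2.87 and 5.25 FPKM in macrophage 5 to 8, against 4.54, 0.494, 3.74 and 5.40 FPKM in microglia 1 to 4. The median coefficient of variation of a member over 4 libraries was 56.6% in macrophages and 86.5% in microglia, against 58.4% and 76.0% for all genes tested, and 100 of 145 members varied more in microglia.

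**Figure D2:**
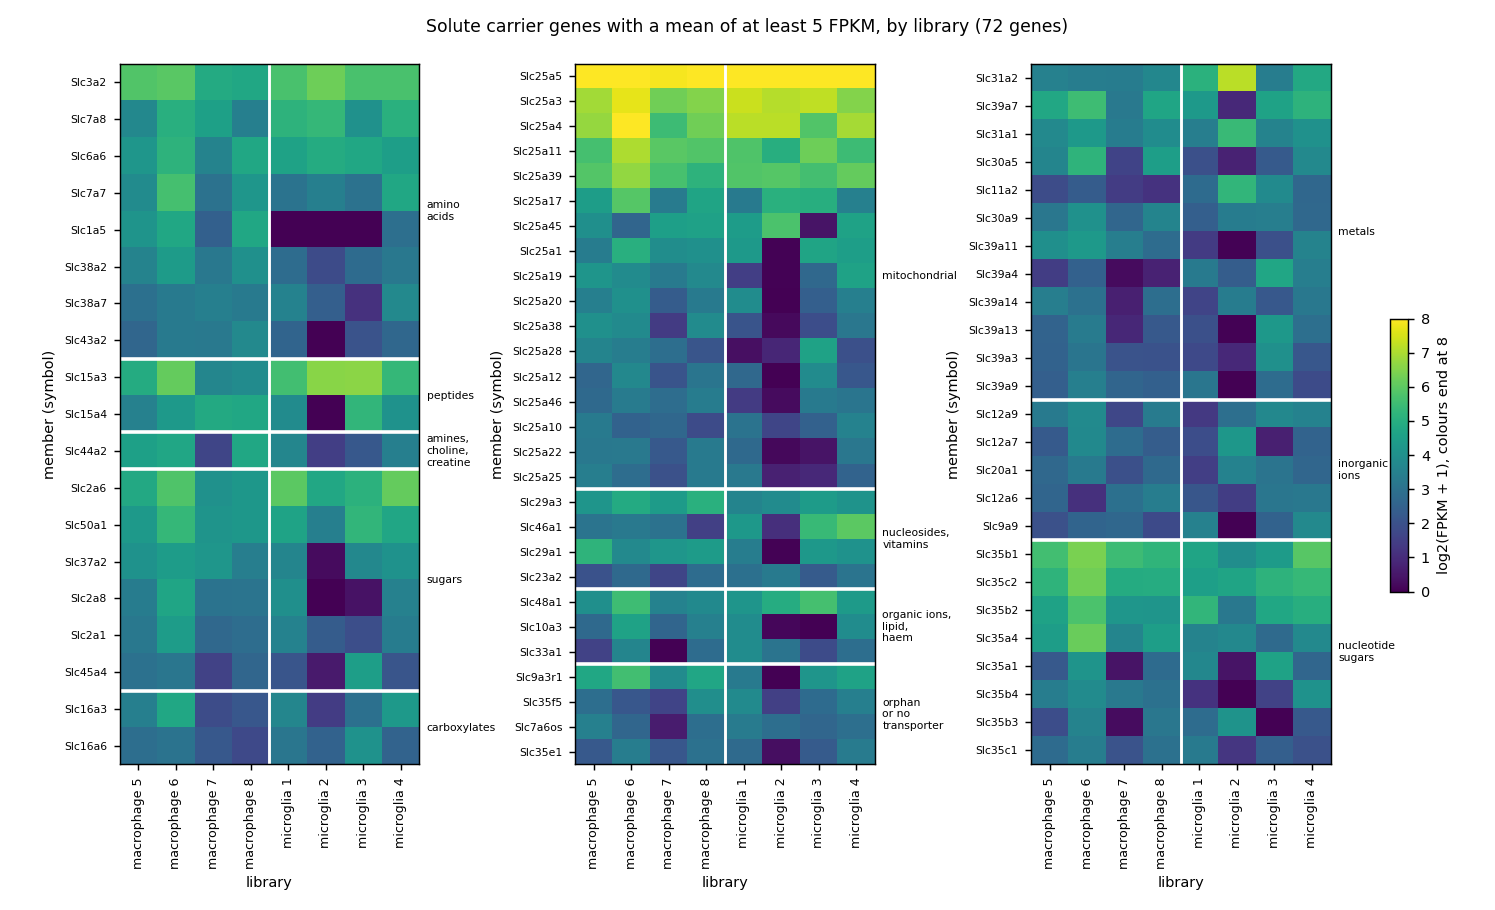
Level in each library of the 72 members with a mean of at least 5 FPKM over the 8 libraries, as log2(FPKM + 1), grouped by substrate and ordered by mean level within a group, with macrophage libraries left of microglial ones. The dark cells in the microglia 2 column are members listed at or near 0 there, and no row is brighter than that of Slc25a5 in any library. Values above the end of the colour scale share its brightest colour.

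Of the 145 members, 41 were at 1 FPKM or more in all 8 libraries and 13 passed with exactly 4. All 4 macrophage libraries reached 1 FPKM for 97 members and all 4 microglial libraries for 53, and for 44 others microglia 2 was the single microglial library below. Slc18a2 passed through the 4 macrophage libraries alone and Slc38a3 through the 4 microglial libraries alone. Just inside the threshold were Slc7a2, an arginine transporter whose value in rank 4 of the 8 libraries was 1.03 FPKM, and Slc38a6 at 1.04 FPKM. Just outside were Slc7a4 at 0.980 and Slc30a4, a zinc transporter, at 0.971 FPKM. The 205 symbols below the filter included 18 listed at 0 in every library, and Slc4a1, the anion exchanger of red cells, was one of these although haemoglobin was present.

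Mitochondrial carriers made up about as much of the summed member level as all other groups together. The 29 members of the Slc25 family held 51.7 ± 4.67% of it in macrophages, against 51.0 ± 5.10% in microglia (SD over 4 libraries). Slc25a5, the adenine nucleotide translocase ANT2, alone held between 19.8% and 31.4% in a library. The 18 amino acid transporters held 9.15 ± 1.23% in macrophages and 8.46 ± 0.792% in microglia, and the 21 metal transporters 6.86 ± 0.936% in macrophages and 9.64 ± 2.87% in microglia. The 12 nucleotide sugar transporters held 9.38 ± 0.813% in macrophages and 6.82 ± 2.11% in microglia, where microglia 2 had 4.11% and microglia 4 had 9.19%. Most members were low: 73 had a mean under 5 FPKM over the 8 libraries, 33 reached 10 FPKM and 3 (Slc25a5, Slc25a3 and Slc25a4) reached 100 FPKM.

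**Figure D3:**
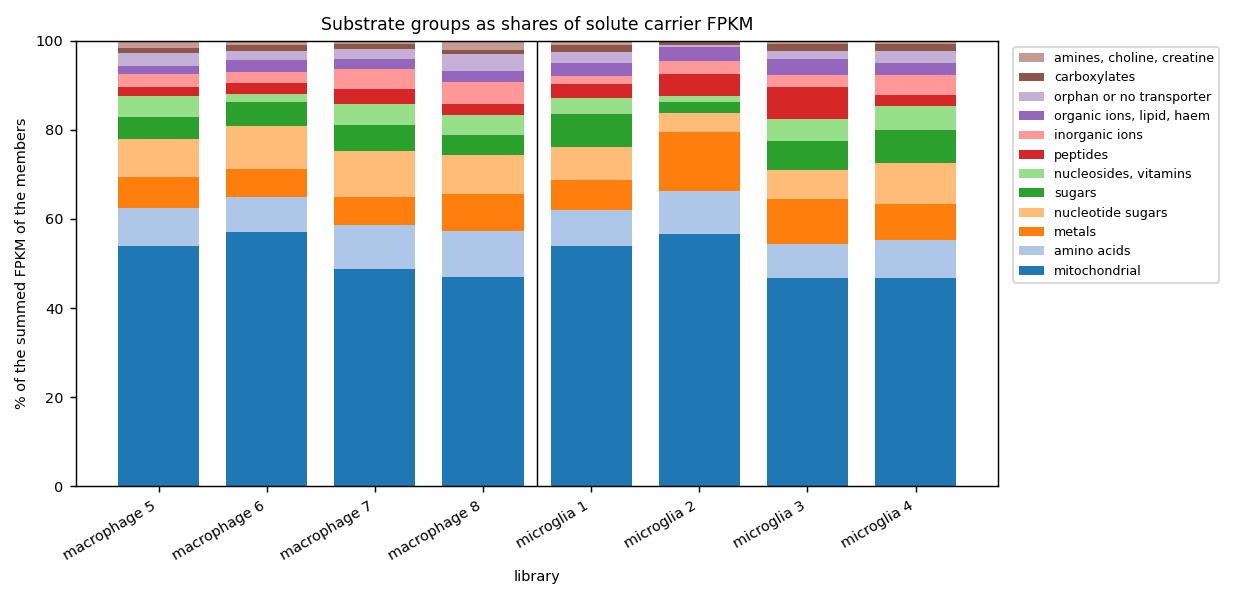
Share of the summed FPKM of the 145 members held by each substrate group in each library, in percent, with macrophage libraries left of microglial ones. Mitochondrial carriers hold 46.6% to 57.1% in every library.

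In the comparison of macrophages with microglia, 2 of 145 members (1.38%) passed the test, against 2.34% of all 9352 genes tested. The test was limma on log2(FPKM + 1) with Benjamini-Hochberg adjustment over all tested genes, and a gene is said to be called where its adjusted p is below 0.05. Slc1a5, a glutamine transporter, rose in macrophages (1.65% of all genes were called higher), and Slc22a17, the lipocalin-2 receptor, fell (0.695% of all genes were called lower). At an unadjusted p below 0.05 were 21 members, 14 higher and 7 lower, which is 14.5% of members and 15.0% of all genes. These shares are near or below the background, so called genes were no more frequent in the family than elsewhere. In bulk RNA a smaller number of cells of a type and less RNA per cell cannot be told apart.

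The levels of 6 members (4.14%) did not overlap between the populations, against 7.63% of all genes. Slc7a5, Slc18a2 and Slc26a11 were above every microglial value in all 4 macrophage libraries (5.69% of all genes were so), and Slc22a17, Slc38a3 and Slc11a2 were below (1.95% of all genes). For Slc18a2 and Slc38a3 the filter itself fixed this. Slc22a17 reached 1 FPKM in 4 microglial libraries and 1 macrophage library, so the filter favoured this for it too. Of all members 91 (62.8%) had a higher mean log level in macrophages, as had 67.1% of all genes, and the median difference of a member was 0.38 on the log2 scale, against 0.37 over all genes. That offset depended on scaling: over all genes the median was 0.27 with upper-quartile scaling, 0.17 with median-of-ratios scaling and -0.03 with quantile normalization, and 82 and 65 members were positive under the last 2 of these. The median 95% interval of a member's difference was 2.86 log2 units wide, so a change of 2-fold in either direction lay within the interval of many members that were not called.

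**Figure D4:**
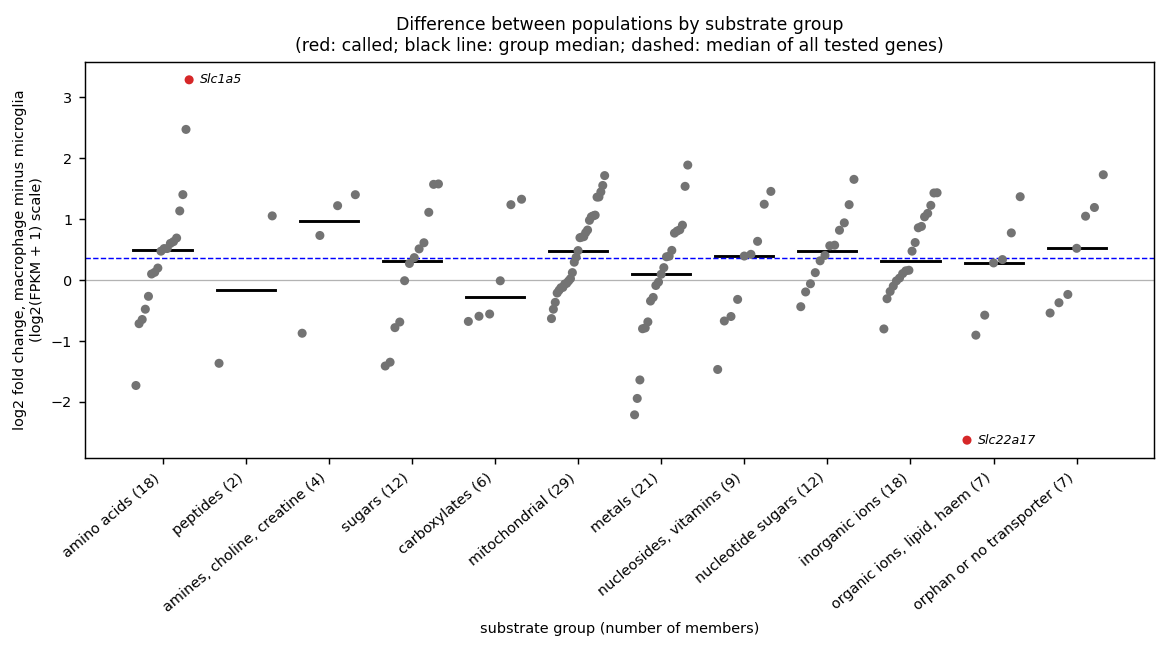
Difference in mean log2(FPKM + 1), macrophages minus microglia, for each of the 145 members by substrate group, with called members in red, the median of each group as a black line and the median of all genes tested (0.37) dashed. Slc1a5 at 3.29 and Slc22a17 at -2.63 lie furthest from 0 in each direction, and every group has members on both sides of 0.

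Amino acid transporters held the member that rose and, short of the threshold, Slc7a5. Slc1a5 (chr7:17366695-17383623, mm9), which exchanges glutamine and other neutral amino acids for one another, had 16.5, 26.0, 4.45 and 26.2 FPKM in macrophage 5 to 8, against 0, 0.0189, 0 and 6.53 FPKM in microglia 1 to 4. The difference was 3.29 ± 0.79 on the log2(FPKM + 1) scale (SE; 95% interval 1.65 to 4.93; adjusted p = 0.0233). Microglia 4 exceeded macrophage 7, so the populations overlapped, and the exact two-sided permutation p was 0.0571, where 0.0286 is the smallest that 4 against 4 libraries allow. The sum of the 6 monocyte and macrophage markers was lowest of the macrophages in macrophage 7 (3448 FPKM) and highest of the microglia in microglia 4 (192 FPKM). The monocyte chemokine receptor Ccr2, at 2.64 and 1.53 FPKM in these libraries, ranked likewise, as did H2-Aa, H2-Ab1 and Cd74. Ly6c2 and Plac8 did not: microglia 4 had 0.230 and 0.186 FPKM, against 1.14 FPKM of Ly6c2 in microglia 2 and 3.93 FPKM of Plac8 in microglia 3. The part of this in the overlap of Slc1a5 was not tested. With summed Y-linked expression as a covariate the difference in Slc1a5 was 1.27 (adjusted p = 0.9999), and without microglia 2 and 3 it was 2.57 (adjusted p = 0.114). The call was also lost without macrophage 5, 6 or 8 or microglia 1 or 3, where the difference was 3.04 to 3.25 (adjusted p 0.0566 to 0.109). Pseudocount 0.1 (limma adjusted p = 0.0696) and no filter on low values (limma adjusted p = 0.299) lost it as well. In all, Slc1a5 was called in 9 of 18 alternatives. Of the microglia only microglia 4 reached 1 FPKM, so Slc1a5 passed the filter mainly through the macrophages, where it is high. The p-values of Slc1a5 make no allowance for that.

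Slc7a5, the light chain LAT1 that imports large neutral amino acids such as leucine, had 7.10, 14.3, 4.29 and 10.3 FPKM in macrophage 5 to 8, against 1.93, 0, 0.0616 and 1.496 FPKM in microglia 1 to 4. Every macrophage value lay above every microglial value, but the adjusted p of 0.0536 missed the threshold (difference 2.47 ± 0.68, SE). Slc7a5 was called in 5 of 18 alternatives, which were no intensity trend, upper-quartile scaling, quantile normalization, array weights and leaving out macrophage 7, with adjusted p between 0.00857 and 0.0491. Its heavy chain partner Slc3a2 (4F2hc, CD98) was among the evenest members, at 56.4, 60.6, 28.6 and 26.1 FPKM in macrophages and 50.9, 74.7, 51.3 and 50.7 FPKM in microglia. The difference in Slc3a2 was -0.48 with a 95% interval of -1.53 to 0.58, and the populations overlapped.

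The other light chains that pair with Slc3a2 did not share one direction. Slc7a8 (LAT2) had 12.2, 32.0, 22.4 and 9.94 FPKM in macrophages and 35.1, 39.1, 15.6 and 32.8 FPKM in microglia, so 3 of 4 microglial values lay above all macrophage values (difference -0.71, adjusted p = 0.595). Slc7a7 (y+LAT1), which exports cationic amino acids, ranged from 7.03 to 48.8 FPKM in macrophages and from 7.04 to 26.0 FPKM in microglia. Slc7a6 (y+LAT2) ranged from 1.04 to 4.90 FPKM in macrophages and from 0.130 to 5.61 FPKM in microglia. Slc7a11 (xCT), which imports cystine in exchange for glutamate and feeds glutathione synthesis, had 2.81, 5.68, 2.60 and 2.16 FPKM in macrophages and 2.57, 3.10, 2.22 and 2.53 FPKM in microglia. Its levels lay within a few FPKM in all 8 libraries, and its difference was 0.20 (adjusted p = 0.916).

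Slc38a3 (SNAT3), a glutamine transporter that Müller glia also express, ran the other way. It had 0, 0, 0.429 and 0.384 FPKM in macrophage 5 to 8, against 2.52, 1.42, 8.93 and 1.83 FPKM in microglia 1 to 4. Slc38a3 became a member through the microglial libraries alone, so that its groups do not overlap follows from the filter, and its difference (-1.73 ± 0.53, SE) is a description. Of 4 Müller glia markers, Glul was at 7.39 to 18.6 FPKM in macrophages and 44.4 to 67.6 FPKM in microglia, while the more restricted Rlbp1 was at 0 to 4.21 FPKM in macrophages and 0 to 0.1195 FPKM in microglia and Aqp4 was at most 0.372 and 0.0354 FPKM.

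The remaining amino acid transporters gave no call. The taurine transporter Slc6a6 had the lowest coefficient of variation of all members over the 8 libraries, 31.3%, with 10.9 to 35.3 FPKM in macrophages and 21.4 to 29.5 FPKM in microglia. Slc38a2 (SNAT2), another glutamine and alanine importer, had 10.9, 20.1, 8.18 and 15.2 FPKM in macrophages and 6.12, 2.56, 5.88 and 8.21 FPKM in microglia, with one microglial value just above the lowest macrophage value (difference 1.14, adjusted p = 0.417). Slc43a2 (LAT4) had 5.27 to 12.5 FPKM in macrophages and 0.0177 to 5.34 FPKM in microglia. Over the 18 amino acid transporters, 13 differences were positive with a median of 0.50, 1 was called higher and 0 lower. Over all genes tested, 67.1% were positive with a median of 0.37.

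**Figure D5:**
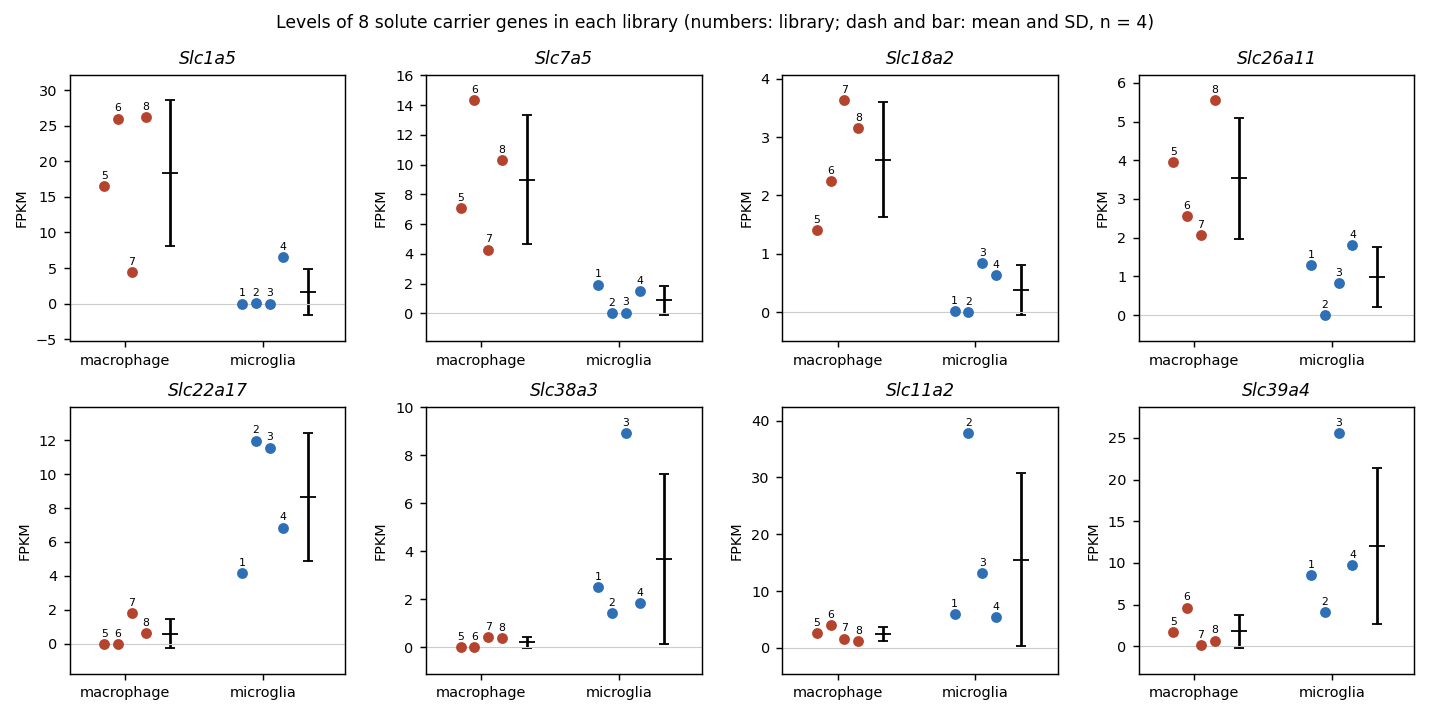
FPKM of 8 members in each library on a linear axis, scaled for each gene, with macrophages left of microglia; points are libraries with their numbers, and the dash and bar are mean and SD (n = 4). Slc1a5 and Slc7a5 sit higher in macrophages and Slc22a17 and Slc38a3 lower, while the microglia 4 point of Slc1a5 at 6.53 FPKM lies above macrophage 7.

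The start regions of 3 members are shown because they hold, or lack, the C/EBP-ATF composite element TGATGNAA, through which ATF4 is known to act on amino acid transporter genes. The 250 bases before the annotated start of each gene come from RefSeq on GRCm38.p6, another build than that of the expression tables, and read 5' to 3' on the gene's strand, with matches on either strand in capitals. Slc7a11 (chr3:50443614-50443863, minus strand) holds the element once on each strand, Slc7a7 (chr14:54417703-54417952, minus strand) holds it in this and 1 other of 5 listed starts, and Slc22a17 (chr14:54913133-54913382, minus strand) holds none in this window. They were chosen after the matches and the levels were seen.
Slc7a11: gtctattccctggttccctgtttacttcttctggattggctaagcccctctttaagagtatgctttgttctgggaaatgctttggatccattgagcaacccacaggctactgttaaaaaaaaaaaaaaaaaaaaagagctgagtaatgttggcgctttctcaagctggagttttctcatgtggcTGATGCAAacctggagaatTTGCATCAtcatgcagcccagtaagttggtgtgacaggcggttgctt
Slc7a7: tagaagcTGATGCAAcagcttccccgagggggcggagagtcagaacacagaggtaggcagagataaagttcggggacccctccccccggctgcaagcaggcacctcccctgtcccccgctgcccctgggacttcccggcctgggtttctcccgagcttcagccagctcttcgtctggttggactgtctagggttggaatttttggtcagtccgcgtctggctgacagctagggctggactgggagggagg
Slc22a17: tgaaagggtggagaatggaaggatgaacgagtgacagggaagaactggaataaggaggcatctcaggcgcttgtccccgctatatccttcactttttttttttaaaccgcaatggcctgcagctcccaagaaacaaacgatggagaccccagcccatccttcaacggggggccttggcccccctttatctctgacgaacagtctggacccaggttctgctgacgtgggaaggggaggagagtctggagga
The element was present in 5 of 146 start regions of the 109 members found in the table (3.43%), against 3.45% of all 32851 start regions, and in 3 of the 18 start regions of amino acid transporters (16.7%), which are that of Slc7a11 and 2 of Slc7a7. The E-box CACGTG was present in 13.7% of the members' regions and 6.02% of all, and the PU.1 core GAGGAAGT in 2.05% of the members' and 2.44% of all; a match is a description of these letters and not a binding site. Both genes printed with the element overlapped between the populations, as given above for Slc7a11 and Slc7a7.

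The 2 peptide and histidine transporters of the endolysosome, Slc15a3 and Slc15a4, were both well expressed. Slc15a3 had 29.4, 68.6, 11.8 and 13.7 FPKM in macrophages and 47.0, 93.7, 96.1 and 38.8 FPKM in microglia, with macrophage 6 above the 2 lowest microglial values (difference -1.37 ± 0.59, SE; adjusted p = 0.281). Slc15a4, which supports endosomal Toll-like receptor signalling, had 10.5, 18.5, 28.3 and 26.1 FPKM in macrophages and 13.7, 0, 37.9 and 15.8 FPKM in microglia. Apart from the 0 in microglia 2, the values of Slc15a4 ran through the same range in both populations.

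Among the 4 transporters of choline, creatine and amines, none was called. The choline transporter-like gene Slc44a2 had 22.4, 25.5, 2.19 and 26.0 FPKM in macrophages and 11.7, 1.79, 3.64 and 9.95 FPKM in microglia. Only macrophage 7 fell within the microglial range (difference 1.22, adjusted p = 0.460). Slc18a2, the vesicular monoamine transporter VMAT2, had 1.41, 2.24, 3.63 and 3.15 FPKM in macrophages and 0.0231, 0, 0.836 and 0.637 FPKM in microglia. Slc18a2 became a member through the macrophage libraries alone, so that its groups do not overlap follows from the filter, and its difference (1.40 ± 0.50, SE) is a description. Slc44a1, a choline transporter, ranged from 1.38 to 5.94 FPKM in macrophages and from 0.0166 to 7.85 FPKM in microglia. Slc6a8, the creatine transporter, ranged from 0.101 to 5.36 FPKM in macrophages and from 1.37 to 8.80 FPKM in microglia.

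Of the 12 sugar transporters, Slc2a6 (GLUT6), a lysosomal family member, and Slc50a1, the mouse SWEET homologue, were the most abundant. Slc2a6 had 27.6, 54.1, 15.5 and 17.8 FPKM in macrophages and 62.9, 26.6, 34.0 and 67.9 FPKM in microglia, with 2 microglial values above all macrophage values (adjusted p = 0.548). Slc50a1 ranged from 16.7 to 39.3 FPKM in macrophages and from 9.89 to 37.3 FPKM in microglia. The ubiquitous glucose transporter Slc2a1 (GLUT1) had 5.55 to 20.7 FPKM in macrophages and 2.80 to 10.7 FPKM in microglia. Slc2a5 (GLUT5), a fructose transporter used as a marker of microglia in brain and named here after its values were seen, had 0.162, 3.36, 0 and 0.610 FPKM in macrophages and 7.41, 1.02, 1.06 and 10.7 FPKM in microglia. Macrophage 6 exceeded microglia 2 and 3, and the difference in Slc2a5 was -1.41 (adjusted p = 0.335); without those 2 microglial libraries it was -2.55 (adjusted p = 0.0363). Slc37a4, the glucose-6-phosphate translocase of the endoplasmic reticulum, had 3.5, 1.91, 5.59 and 5.92 FPKM in macrophages and 0, 0, 0.759 and 3.34 FPKM in microglia, and Slc2a8 was listed at 0 in microglia 2 and ranged up to 14.9 FPKM in other microglia and from 7.26 to 25.2 FPKM in macrophages; neither was called.

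The 6 carboxylate transporters gave no call either. The lactate exporter Slc16a3 (MCT4) had 10.005, 26.5, 2.60 and 3.53 FPKM in macrophages and 11.7, 1.66, 6.69 and 18.6 FPKM in microglia. Its populations covered the same range (difference -0.01, 95% interval -1.60 to 1.58). Slc16a1 (MCT1), which carries lactate and pyruvate in either direction, was lower than Slc16a3, with 0.653 to 2.28 FPKM in macrophages and 0 to 4.54 FPKM in microglia. Slc16a6 ranged from 2.43 to 7.30 FPKM in macrophages and from 4.78 to 15.8 FPKM in microglia. Slc13a3, a sodium-coupled transporter of succinate and other dicarboxylates, had 3.28, 3.52, 3.12 and 1.11 FPKM in macrophages and 0.825, 0, 0 and 1.32 FPKM in microglia, and only macrophage 8 lay below microglia 4 (difference 1.33 ± 0.53, SE; adjusted p = 0.235).

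Mitochondrial carriers were the most abundant group and 0 of 29 were called by limma, with 1 at an unadjusted p below 0.05, against 15.0% of all genes tested. Of all the alternatives, array weights called 3 of them and leaving out macrophage 7 called 1. Slc25a5 had 563, 1107, 237 and 349 FPKM in macrophages and 513, 593, 373 and 526 FPKM in microglia. The difference was -0.05 (95% interval -1.05 to 0.94), with both the highest and the lowest value in macrophages. Slc25a3, which imports phosphate for ATP synthesis, had 117, 207, 76.0 and 89.6 FPKM in macrophages and 163, 136, 150 and 89.8 FPKM in microglia, and Slc25a4 (ANT1), the other abundant adenine nucleotide translocase, ranged from 43.4 to 276 FPKM in macrophages and from 55.3 to 142 FPKM in microglia. Slc25a24, a calcium-regulated ATP-Mg/phosphate carrier, had 3.68, 7.80, 0.0569 and 4.70 FPKM in macrophages and 0, 0.0166, 1.06 and 0.0158 FPKM in microglia. Macrophage 7 fell among the microglial values (difference 1.72 ± 0.60, SE; adjusted p = 0.158). Slc25a1, the citrate carrier that supplies acetyl-CoA for lipid synthesis, was at 0.0327 FPKM in microglia 2 and between 9.25 and 31.8 FPKM in the other 7 libraries, and the aspartate-glutamate carrier Slc25a12 was at 0.0144 FPKM there and between 3.20 and 13.6 FPKM elsewhere.

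Among the 21 metal transporters the 3 members lower in macrophages at an unadjusted p below 0.05 were Slc39a4, Slc11a2 and Slc31a2, and the 1 that was higher was Slc39a11. Of all 9352 genes, 320 were lower and 1082 higher at that p. None of the metal transporters was called. Under the alternatives, Slc39a4 was called with array weights, with quantile normalization and without microglia 2 (-2.57, adjusted p = 0.0390), Slc31a2 with array weights and Slc11a2 with quantile normalization. Slc39a4 (ZIP4), the zinc importer of the intestine, had 1.71, 4.66, 0.165 and 0.702 FPKM in macrophages and 8.58, 4.15, 25.6 and 9.70 FPKM in microglia, and only macrophage 6 exceeded microglia 2 (difference -2.21 ± 0.74, SE; adjusted p = 0.134). Slc11a2 (DMT1), which carries ferrous iron out of endosomes, had 2.65, 4.04, 1.66 and 1.27 FPKM in macrophages and 5.89, 37.8, 13.2 and 5.40 FPKM in microglia. All 4 microglial values of Slc11a2 were higher, and its difference was -1.94 ± 0.72 (SE; adjusted p = 0.198) with all libraries and -1.03 (adjusted p = 0.692) without microglia 2 and 3, the 2 highest. The copper transporter-like Slc31a2 had 10.4, 9.45, 9.28 and 11.96 FPKM in macrophages and 33.6, 143, 9.52 and 27.4 FPKM in microglia. Its macrophage values lay close together, and microglia 3 fell among them. Slc39a11, a zinc transporter of intracellular membranes, had 14.8, 19.1, 9.60 and 6.06 FPKM in macrophages and 1.65, 0.0383, 2.90 and 10.8 FPKM in microglia (difference 1.89, adjusted p = 0.239). The most abundant zinc transporter by mean was Slc39a7 (ZIP7), which releases zinc from the endoplasmic reticulum, with 26.8, 44.3, 8.51 and 25.3 FPKM in macrophages and 19.1, 0.911, 23.3 and 35.1 FPKM in microglia.

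Nucleoside and vitamin transporters, 9 in all, gave no call. Slc29a3 (ENT3), which returns nucleosides from the lysosome and whose loss causes histiocyte accumulation in humans, had 17.1, 28.4, 19.8 and 32.6 FPKM in macrophages and 11.1, 13.5, 20.0 and 16.2 FPKM in microglia. One microglial value reached into the macrophage range (difference 0.64, adjusted p = 0.630). The proton-coupled folate transporter Slc46a1 had 7.39, 8.33, 7.17 and 1.85 FPKM in macrophages and 18.3, 1.09, 41.0 and 61.9 FPKM in microglia, so 3 microglial values lay above all macrophage values and microglia 2 below them. Its difference was -1.47 ± 0.83 (SE; adjusted p = 0.423), and without microglia 2 and 3 it was -2.41 (adjusted p = 0.0869). Slc46a1 was called lower without microglia 2 alone (-2.50, adjusted p = 0.0261) and with array weights (-2.07, adjusted p = 0.0108). The plasma membrane nucleoside transporter Slc29a1 (ENT1) ranged from 12.5 to 35.7 FPKM in macrophages and from 0.0263 to 18.2 FPKM in microglia, the lowest again in microglia 2.

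The 12 nucleotide sugar transporters supply the endoplasmic reticulum and Golgi with donors for glycosylation, and none was called. Slc35b1, which exchanges ATP and ADP across the endoplasmic reticulum membrane, had 46.4, 82.6, 43.5 and 36.9 FPKM in macrophages and 24.2, 14.2, 20.2 and 59.6 FPKM in microglia. Microglia 4 alone lay in the macrophage range (difference 0.94 ± 0.56, SE; adjusted p = 0.439). Slc35b4, a transporter of UDP-xylose and UDP-N-acetylglucosamine, had 9.55, 13.4, 8.50 and 6.91 FPKM in macrophages and 1.26, 0.0138, 2.0 and 15.9 FPKM in microglia. Microglia 4 held the highest of all 8 values and the other microglia lay below every macrophage value. Its difference was 1.65 (adjusted p = 0.322), and with Y-linked expression as a covariate, which sets microglia 4 apart from the other microglia, it was -0.00473. Slc35c2, which acts in Notch fucosylation, ranged from 29.3 to 75.7 FPKM in macrophages and from 21.9 to 39.6 FPKM in microglia.

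Of 18 transporters of inorganic ions, 4 were higher in macrophages at an unadjusted p below 0.05 (limma), as were 1082 of all 9352 genes, and none was called. The phosphate transporter Slc20a2 (PiT2) had 1.96, 4.15, 2.64 and 3.08 FPKM in macrophages and 0, 0.0142, 0.0148 and 3.11 FPKM in microglia, again with only microglia 4 in the macrophage range (difference 1.43 ± 0.57, SE; adjusted p = 0.232). Its relative Slc20a1 (PiT1) had 2.87 to 8.88 FPKM in macrophages and 1.82 to 10.7 FPKM in microglia. Slc26a11, an anion exchanger, had 3.95, 2.56, 2.06 and 5.55 FPKM in macrophages and 1.30, 0, 0.820 and 1.81 FPKM in microglia. These populations did not overlap, though the nearest values were 2.06 and 1.81 FPKM (difference 1.23 ± 0.59, SE; adjusted p = 0.329). The most abundant of the group, Slc12a9 and the potassium-chloride cotransporter Slc12a7 (KCC4), ranged from 2.26 to 13.1 and from 3.81 to 12.9 FPKM in macrophages, and from 1.52 to 12.3 and from 0.611 to 17.9 FPKM in microglia.

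The member that fell was among the 7 transporters of organic ions, lipids and haem. Slc22a17 (chr14:55525564-55531969, mm9), also called 24p3R, is known as a receptor that takes up the iron-siderophore carrier lipocalin-2. It had 0, 0, 1.798 and 0.617 FPKM in macrophage 5 to 8, against 4.17, 11.97, 11.6 and 6.84 FPKM in microglia 1 to 4. Every macrophage value lay below every microglial value, and the difference was -2.63 ± 0.66 (SE; 95% interval -3.99 to -1.27; adjusted p = 0.0293; exact two-sided permutation p = 0.0286, the smallest possible). With Y-linked expression as a covariate it was -2.38 (adjusted p = 0.839), and without microglia 2 and 3 it was -2.13 (adjusted p = 0.0697). The call was also lost without macrophage 5, 6 or 8 or microglia 3, where the difference was -2.68 to -2.45 (adjusted p 0.0504 to 0.190). Pseudocount 0.1 (limma adjusted p = 0.0847) and no filter on low values (limma adjusted p = 0.164) lost it as well. In all, Slc22a17 was called in 10 of 18 alternatives. Of the macrophage libraries only macrophage 7 reached 1 FPKM, so Slc22a17 passed the filter mainly through the microglia, where it is high. The p-values of Slc22a17 make no allowance for that. Slc48a1 (HRG1), which carries haem out of the phagolysosome, had 14.8, 45.0, 10.7 and 12.9 FPKM in macrophages and 17.1, 29.9, 49.0 and 19.7 FPKM in microglia. All but macrophage 6 lay below the microglial values of Slc48a1 (difference -0.58, adjusted p = 0.702), whose highest, 49.0 FPKM, was in microglia 3, the library with the most erythroid RNA. Slc10a3 had 5.60, 23.4, 5.11 and 10.1 FPKM in macrophages and 13.9, 0.112, 0 and 13.8 FPKM in microglia, whose values fell on both sides of most macrophage ones. The carnitine transporter Slc22a5 and the fatty acid transporters Slc27a1 and Slc27a4 spanned 0.0400 to 10.4 FPKM in macrophages and 0.0127 to 11.9 FPKM in microglia, with no call.

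The last 7 members are orphans or carry an Slc symbol without being transporters. Slc9a3r1 (NHERF1), a scaffold that binds the tails of membrane transporters, had 26.4, 46.5, 13.6 and 25.6 FPKM in macrophages and 8.55, 0, 16.9 and 23.3 FPKM in microglia. Macrophage 7 lay between microglial values (difference 1.73 ± 0.79, SE; adjusted p = 0.306). Slc4a1ap (kanadaptin) and Slc7a6os take their symbols from neighbouring or partner genes, and their levels of 0.537 to 10.2 FPKM in macrophages and 0 to 8.98 FPKM in microglia overlapped, as did those of the orphan Slc35f5, at 2.09 to 14.5 FPKM and 1.83 to 13.2 FPKM.

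Transporters of solute carrier families under other symbols, and the partner and gradient-making subunits, were read beside the members. Over all 9352 genes tested, 1.65% were called higher and 0.695% lower, the shares to set beside both of these lists. Of 30 related transporters tested, 0 were called higher and 1, Spns2, lower. Spns2, which exports sphingosine-1-phosphate, had 0, 0.0591, 1.40 and 0.439 FPKM in macrophages and 10.4, 12.2, 17.1 and 9.71 FPKM in microglia, and every macrophage value lay far below every microglial value (difference -3.24 ± 0.66, SE; adjusted p = 0.00575; -2.85 with adjusted p = 0.513 with the Y-linked covariate). Without macrophage 5 the difference in Spns2 was -3.09 and not called (adjusted p = 0.0556). Of the macrophage libraries only macrophage 7 reached 1 FPKM, so Spns2 passed the filter mainly through the microglia, where it is high. Among 7 partners tested, 1 was higher and 0 lower: Emb (embigin), a chaperone of monocarboxylate transporters, had 17.2, 25.7, 1.45 and 20.4 FPKM in macrophages and 0, 0, 0 and 0.227 FPKM in microglia, with macrophage 7 nearest the microglia (difference 3.58 ± 0.74, SE; adjusted p = 0.00605; 2.81 with adjusted p = 0.6501 with the Y-linked covariate). The call of Emb was also lost with no filter on low values (adjusted p = 0.191). Emb was tested through the macrophage libraries alone, so that its groups do not overlap follows from the filter. Its difference and call are a description. Bsg (basigin), the more general chaperone of Slc16a1 and Slc16a3, had 119, 263, 121 and 68.1 FPKM in macrophages and 245, 206, 208 and 230 FPKM in microglia, and was not called (adjusted p = 0.447). Atp1b3, a subunit of the sodium pump, ranged from 47.2 to 186 FPKM in macrophages and from 29.8 to 102 FPKM in microglia. Mitochondrial Ucp2 and the pyruvate carrier subunit Brp44l, the most abundant related transporters, were at 78.0 to 144 and 22.5 to 130 FPKM in macrophages, and at 111 to 178 and 104 to 205 FPKM in microglia, with no call.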

How the data were processed

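The 8 libraries were grouped by the tissue subtype in the labels, 4 infiltrating macrophage and 4 microglial, and keep the number in their titles. The submitters' processing notes name bcl2fastq 1.8.4, Cufflinks 2.1.1 and the mm9 build, while an aligner and annotation were not given in the sources used here. The deposited FPKM values are the authors' Cufflinks estimates per gene, per the file headers. They are normalised for depth and transcript length but not for composition. They are not counts, and the depth of each library is not in the tables, so no counting interval is given. Coordinates are those of the tables, written from 1.

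Rows of one symbol were summed, and 9 symbols with a failed estimate were left out. Genes at 1 FPKM or more in at least 4 of 8 libraries were fitted in R 4.3.3 with limma 3.58.1 after taking log2(FPKM + 1), which understates changes of low genes. The fit had an intensity trend and no covariate, and two-sided p-values were Benjamini-Hochberg adjusted over 9352 genes. The step was tested on simulated data with independent normal noise for each gene. Those data had no library-wide shifts and no zeros shared within a library, so the test does not cover these features. Single genes were also compared by an exact permutation test over libraries (Python 3.11.15, numpy 2.4.6). The median interval width was computed with scipy 1.17.1. Alternatives were pseudocount 0.1, other filters, 3 other scalings, no trend, array weights, a Y-linked covariate and leaving out libraries. No 2 libraries held identical values.

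Named genes are all called members, the 2 most abundant and the 1 with the largest difference in each substrate group, the members and symbols next to the threshold, and called or abundant related and partner genes. Members, substrate groups and marker lists were chosen with earlier results of these data known. Slc7a6os, Slc4a1ap and Slc17a5 were moved between substrate groups after values were seen. Slc7a5, Slc11a2, Slc26a11, Slc38a3 and Slc2a5 were named after their values were seen, as were members given by range or in illustration of a role. The 3 members whose start regions are printed were also chosen then. Values of some members are not reported here.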

Additional observations from a re-analysis of the deposited data

Results flagged for a closer look

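In 11 of 92 groups of 4 libraries examined for the named genes, one library stood apart from the other 3, with a gap to the nearest that took nearly the whole range of the group. The gap required is one that about 1 in 20 groups of independent normal values would reach. Groups here hold values at 0, share the same 8 libraries and are partly of genes named for their levels. The count therefore cannot be set against that rate. Microglia 4 was the high library for Slc1a5 (6.53 FPKM), Slc20a2 (3.11 FPKM) and Emb (0.227 FPKM), where the other microglia were at or near 0, and it is also the microglial library with Xist (4.78 FPKM) and the highest monocyte marker sum (192 FPKM). Macrophage 7 was the low library for Slc44a2 (2.19 FPKM) and Emb (1.45 FPKM), and it had the lowest monocyte marker sum of the macrophages (3448 FPKM). Macrophage 6, the library with the highest FPKM sum, was the high one for Slc50a1 (39.3 FPKM) and Atp1b3 (186 FPKM). Macrophage 8 was the low one for Slc13a3 (1.11 FPKM) and Slc46a1 (1.85 FPKM). Microglia 2 was the high one for Slc3a2 (74.7 FPKM), and microglia 3 for Slc25a24 (1.06 FPKM). The part of these library features in the values was not tested.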

How the results depend on the processing

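No paired analysis was possible because the populations share no replicate number. Of the 827 differences of the 46 named genes under the alternatives to the limma fit, 746 kept direction and side of the threshold, 21 lost a call, 22 gained one and 1 turned (Slc35b4, -0.00473 with the Y-linked covariate, against 1.65). The other 37 changed sign where neither fit called the gene and the unadjusted p was above 0.05. Only Slc1a5, Slc22a17, Spns2 and Emb had a call to lose, so most of the 746 are genes uncalled in both fits. Slc1a5 was called in 9 of 18 alternatives, Slc22a17 in 10, and Spns2 and Emb in 16 each. Against 1 member called higher, pseudocount 0.1, no filter, the Y-linked covariate and leaving out microglia 2 and 3 gave 0, upper-quartile scaling, quantile normalization and no intensity trend gave 2, array weights gave 5, and leaving out 1 library gave 0 to 3. Against 1 called lower, pseudocount 0.1, no filter and the Y-linked covariate gave 0, quantile normalization 5, array weights 8, and leaving out 1 library 0 to 4. Slc1a5 was not called without macrophage 5, 6 or 8 or microglia 1 or 3, and Slc22a17 not without macrophage 5, 6 or 8 or microglia 3; the cause was not tested. The 1 member called lower without microglia 2 and 3 was Slc2a5. Calls over all genes numbered 219, and 136 with pseudocount 0.1, 50 with no filter, 1075 with array weights and 25 with the Y-linked covariate; 70.3% of calls were higher, against 59.5% with upper-quartile, 55.3% with median-of-ratios and 53.4% with quantile scaling. FPKM without counts leaves the precision of low members unknown.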
